A study of Mus musculus with 5 samples.

Results

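The collagen genes were taken as every gene whose symbol reads Col, a number, the letter a and a number. The rule found 44 genes among the 32285 in the files. UMI counts of these genes were read in 5 single-cell libraries of C57BL/6N mice (the genotype given by the labels; the study's methods name C57BL/6J). A UMI (unique molecular identifier) stands for 1 captured RNA molecule. The groups were penis (glans with the prepuce removed, male mice at postnatal day 6, 3 libraries) and limb (male embryos at embryonic day 15, 1 library of forelimb and 1 of hindlimb). No library carried a mutant allele or a treatment. Per the methods, the penis mice came from fewer litters than mice, so some shared a litter, and limbs of several embryos were dissected. The labels tie no library to a mouse, litter or embryo, so the tests below measure the spread between these libraries. Tissue and age changed together between penis and limb and cannot be told apart.

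After the study's filters, the penis libraries held 6788, 7085 and 5708 cells with a median of 9909, 9349 and 8792 UMIs, the forelimb 22057 cells with 5358 and the hindlimb 20514 cells with 6057. Cells were sorted into types by the number of marker genes with a UMI, and no collagen gene was a marker. Names such as mesenchyme therefore stand for a marker gate. The mesenchyme gate held most cells of every library, between 3625 and 4412 in penis and 11260 and 10985 in the limbs, and the endothelial, mural, epithelial, glial, tendon and white blood gates held between 105 and 1455 cells each. No penis cell passed the muscle gate. UMIs were summed over the cells of a gate in a library and scaled to the same total in every gate and library (CPM), so that a level is relative to all UMIs of those cells. A level is a mean over the gate, so more cells with a gene and more RNA in each such cell cannot be told apart from CPM alone. Capture of UMIs at a gene's end differs between genes, so below a gene is compared with itself across types and tissues.

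Collagens are built from chains wound into a triple helix, and each gene encodes 1 chain. Fibrillar collagens (types I, II, III, V, XI, XXIV and XXVII) form the fibrils of bone, tendon, skin and cartilage. FACIT collagens (types IX, XII, XIV, XVI, XIX, XX and XXII) have interrupted helices and sit on such fibrils. Network collagens build sheets: type IV makes basement membranes, type VIII a lattice under some endothelia, and type X the matrix of hypertrophic cartilage. Type VI forms beaded filaments around cells, type VII anchors epidermis to dermis, and types XIII, XVII, XXIII and XXV span the cell membrane. Types XV and XVIII, the multiplexins, carry sugar chains and lie in or beside basement membranes.

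The collagen genes took 2.48%, 2.48% and 2.55% of all UMIs in penis, 1.38% in forelimb and 1.30% in hindlimb. Within the mesenchyme gate the shares were 2.84%, 2.89% and 2.95% in penis against 1.68% and 1.55% in forelimb and hindlimb. The tendon gate held 4.93%, 4.80% and 5.04% against 2.23% and 1.95%, and the glial gate 1.43%, 1.43% and 1.53% against 0.725% and 0.662%. In these gates every penis library lay above both limb libraries, while the tissues overlapped in the endothelial, mural, epithelial, chondrocyte and osteoblast gates, with 0.589 to 0.684% against 0.619% and 0.534% in endothelium. Mesenchyme-gated cells supplied 78.1 to 78.4% of all collagen UMIs of the penis libraries and 63.6% and 64.0% of those of the forelimb and hindlimb.

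White blood cells, which make little collagen, gave the low reference. Collagen genes took 0.314%, 0.400% and 0.338% of their UMIs in penis and 0.277% and 0.206% in forelimb and hindlimb. *Col1a1*, the main chain of type I fibrils, stood at 725, 991 and 785 CPM in penis white blood cells and 666 in the forelimb and 444 in the hindlimb. Free RNA in the droplets puts UMIs of abundant genes into all cells, so a level near the one in white blood cells of the same libraries is given as such below. The part of free RNA in any difference was not tested.

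Gates are ordered below by the mean over the libraries of a tissue. *Col1a1* was highest in the osteoblast gate by this mean, with 21616, 15203 and 35559 CPM in penis and 18079 in the forelimb and 18186 in the hindlimb. Each osteoblast gate held only 5 to 15 cells, and the penis range covered both limb values. In tendon-gated cells *Col1a1* stood at 18072, 17191 and 18665 CPM in penis, and in mesenchyme-gated cells at 7041, 7061 and 7204. In penis replicate 2 the tendon value was above the osteoblast one. The 3 tendon values lay above the 3 mesenchyme values. *Col3a1*, the chain of the homotrimeric type III fibril of elastic tissues, had the opposite order, with 8405 ± 263 CPM in mesenchyme (SD, n = 3) and 6949 ± 193 in tendon. Mural cells (the pericyte and smooth muscle gate) held 5906 ± 705 CPM of it. Among the minor fibrillar chains, which set fibril width, *Col5a1* and *Col5a2* were highest in penis tendon cells at 853 ± 65.6 and 2028 ± 87.8 CPM. *Col5a3* was highest in penis glia at 262 ± 16.4 CPM, above 109 ± 14.4 in mural cells.

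Basement membrane chains followed endothelium, mural cells and epithelium. *Col4a1* and *Col4a2*, which pair in nearly all basement membranes, were highest in endothelial cells, at 1661 ± 88.8 and 887 ± 48.8 CPM in penis. In the limbs *Col4a1* stood there at 1636 in the forelimb and 1659 in the hindlimb. Mural cells of the penis came next with 1533 ± 189 CPM of *Col4a1*, a range that overlapped the endothelial one. The glial gate held 719 ± 26.3 CPM. *Col4a5* and *Col4a6*, chains of the basement membranes of skin and smooth muscle, were highest in epithelium: 219 ± 53.1 and 221 ± 36.0 CPM in penis. *Col4a3* and *Col4a4*, known from the kidney filter, did not pass 11.0 CPM in any penis gate on average. *Col18a1*, the source of endostatin, was highest in endothelium at 429 ± 28.6 CPM and stood at 347 ± 34.3 in glia. *Col7a1*, the anchoring fibril chain, and *Col17a1*, which holds basal epidermal cells to their basement membrane, were highest in the epithelial gate, at 116 ± 19.0 and 399 ± 73.6 CPM.

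The type IV genes lie in pairs that start head to head on opposite strands. In the GENCODE annotation of GRCm38 (mm10), *Col4a1* (chr8:11198423-11312826, minus strand) and *Col4a2* (chr8:11312805-11449287, plus strand) start 21 bases apart, *Col4a3* and *Col4a4* on chromosome 1 start 72 bases apart, and *Col4a5* (chrX:141475385-141689234, plus strand) and *Col4a6* (chrX:141165403-141474076, minus strand) start 1309 bases apart. The promoter windows below run from 250 bases before to 50 bases after the RefSeq start (GRCm38.p6) and are shown because the level of 1 gene of a pair can be set against that of the other. For *Col4a1* (chr8:11312777-11313076, minus strand) and *Col4a2* (chr8:11312555-11312854, plus strand), capitals mark the 78 bases that lie in both windows, read on opposite strands. For *Col4a5* (chrX:141475169-141475468, plus strand) and *Col4a6* (chrX:141474027-141474326, minus strand), capitals mark a GC box (GGGCGG or its reverse complement CCGCCC), which each of the pair holds once. This motif was searched on both strands and occurs in 35.7% of the 32851 RefSeq promoters of that length. It occurs in 23 of the 38 such promoters of collagen genes, which are promoters of 22 of 35 genes. A match is a description of the letters, not a site.
Col4a1: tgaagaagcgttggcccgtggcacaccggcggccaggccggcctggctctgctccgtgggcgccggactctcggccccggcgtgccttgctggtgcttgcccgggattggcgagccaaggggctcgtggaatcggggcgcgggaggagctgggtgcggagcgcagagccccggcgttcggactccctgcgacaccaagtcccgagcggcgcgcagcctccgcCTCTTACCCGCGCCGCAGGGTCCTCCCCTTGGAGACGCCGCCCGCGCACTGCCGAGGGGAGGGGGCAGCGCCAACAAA
Col4a2: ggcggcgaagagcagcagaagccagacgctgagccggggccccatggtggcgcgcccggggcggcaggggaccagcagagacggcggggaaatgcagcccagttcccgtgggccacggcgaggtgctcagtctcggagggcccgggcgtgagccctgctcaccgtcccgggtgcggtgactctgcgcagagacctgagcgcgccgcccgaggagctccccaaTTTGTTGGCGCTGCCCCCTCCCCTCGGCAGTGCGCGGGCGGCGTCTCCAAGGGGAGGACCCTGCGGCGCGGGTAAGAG
Col4a5: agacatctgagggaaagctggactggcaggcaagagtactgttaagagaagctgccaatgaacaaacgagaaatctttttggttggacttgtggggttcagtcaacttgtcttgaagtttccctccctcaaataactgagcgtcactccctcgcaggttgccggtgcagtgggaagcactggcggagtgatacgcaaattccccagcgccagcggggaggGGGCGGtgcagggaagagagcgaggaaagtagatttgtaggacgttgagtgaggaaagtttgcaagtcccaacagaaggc
Col4a6: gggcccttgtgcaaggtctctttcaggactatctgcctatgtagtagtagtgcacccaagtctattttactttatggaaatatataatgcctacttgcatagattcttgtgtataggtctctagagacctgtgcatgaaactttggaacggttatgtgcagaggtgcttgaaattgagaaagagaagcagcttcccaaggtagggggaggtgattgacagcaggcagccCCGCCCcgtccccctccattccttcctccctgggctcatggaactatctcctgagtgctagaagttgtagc

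Cartilage collagens were highest in the chondrocyte gates. *Col2a1*, the fibril of cartilage, and *Col9a1*, *Col9a2* and *Col9a3*, which coat it, are described with the skeletal gates below. Outside cartilage, *Col9a3* stood at 235 ± 6.35 CPM in penis tendon cells and 82.4 ± 10.1 in penis glia. *Col11a1*, which starts the cartilage fibril, stood at 958 ± 45.6 CPM in penis tendon cells against 906 in the forelimb and 913 in the hindlimb, where the groups overlapped.

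Type VI chains *Col6a1*, *Col6a2* and *Col6a3* were spread over the connective tissue and skeletal gates. In penis mesenchyme they stood at 709 ± 12.0, 563 ± 8.83 and 555 ± 4.96 CPM, in tendon at 972 ± 51.3, 749 ± 38.3 and 869 ± 45.3, and in endothelium at 55.2 ± 1.69, 48.8 ± 4.55 and 62.0 ± 2.96, which is no higher than in white blood cells (84.5, 70.0 and 89.3 CPM). Of the other chains of the type, *Col6a6* was highest in mesenchyme at 114 ± 7.14 CPM, *Col6a4* in mural cells at 28.6 ± 5.17, and *Col6a5* did not pass 2.21 CPM on average in any penis gate. Among FACITs, *Col14a1* was highest in tendon (1268 ± 102 CPM) and mesenchyme (824 ± 19.9), and *Col12a1* in osteoblast-gated cells (1106 ± 363), with tendon at 672 ± 41.2. *Col16a1* was also highest in tendon (544 ± 33.7). *Col15a1* lay within 2-fold over penis mesenchyme (372 ± 11.9 CPM), tendon (250.1 ± 4.11), endothelium (233 ± 15.1), glia (226 ± 14.7) and mural cells (206 ± 28.7), while in the limbs it was highest in endothelium (425 in the forelimb and 389 in the hindlimb).

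Lesser-known chains are given by the gate of their highest mean, which for some overlapped other gates. *Col25a1* had its highest penis mean in the osteoblast gate, at 254 ± 259 CPM, and overlapped other gates. The transmembrane *Col23a1* was highest in penis endothelium (238 ± 22.5 CPM), the network chain *Col8a1* in penis mural cells (100.5 ± 21.4, overlapping tendon at 92.2 ± 28.5) and *Col28a1* in penis glia (589 ± 51.4). *Col13a1*, found at the neuromuscular junction and in bone, and *Col22a1* were highest in the few osteoblast-gated cells (380.0 ± 237 and 108 ± 75.3 CPM in penis). The fibrillar *Col24a1* was highest in the penis chondrocyte gate (659.8 ± 90.6) and *Col27a1*, of cartilage fibrils, in penis cells that passed both skeletal gates (1034 ± 53.9). In the limbs, muscle-gated cells held the highest mean levels of *Col19a1* (124 in the forelimb and 202 in the hindlimb, where forelimb epithelium was above forelimb muscle) and *Col26a1* (160.5 in the forelimb and 178 in the hindlimb), and glia those of *Col20a1* (213 in the forelimb and 193 in the hindlimb). *Col19a1* in penis was highest in mural cells (31.6 ± 10.1 CPM), overlapping glia, and *Col26a1* was highest in penis mesenchyme by its mean (87.2 ± 3.84).

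**Figure D1:**
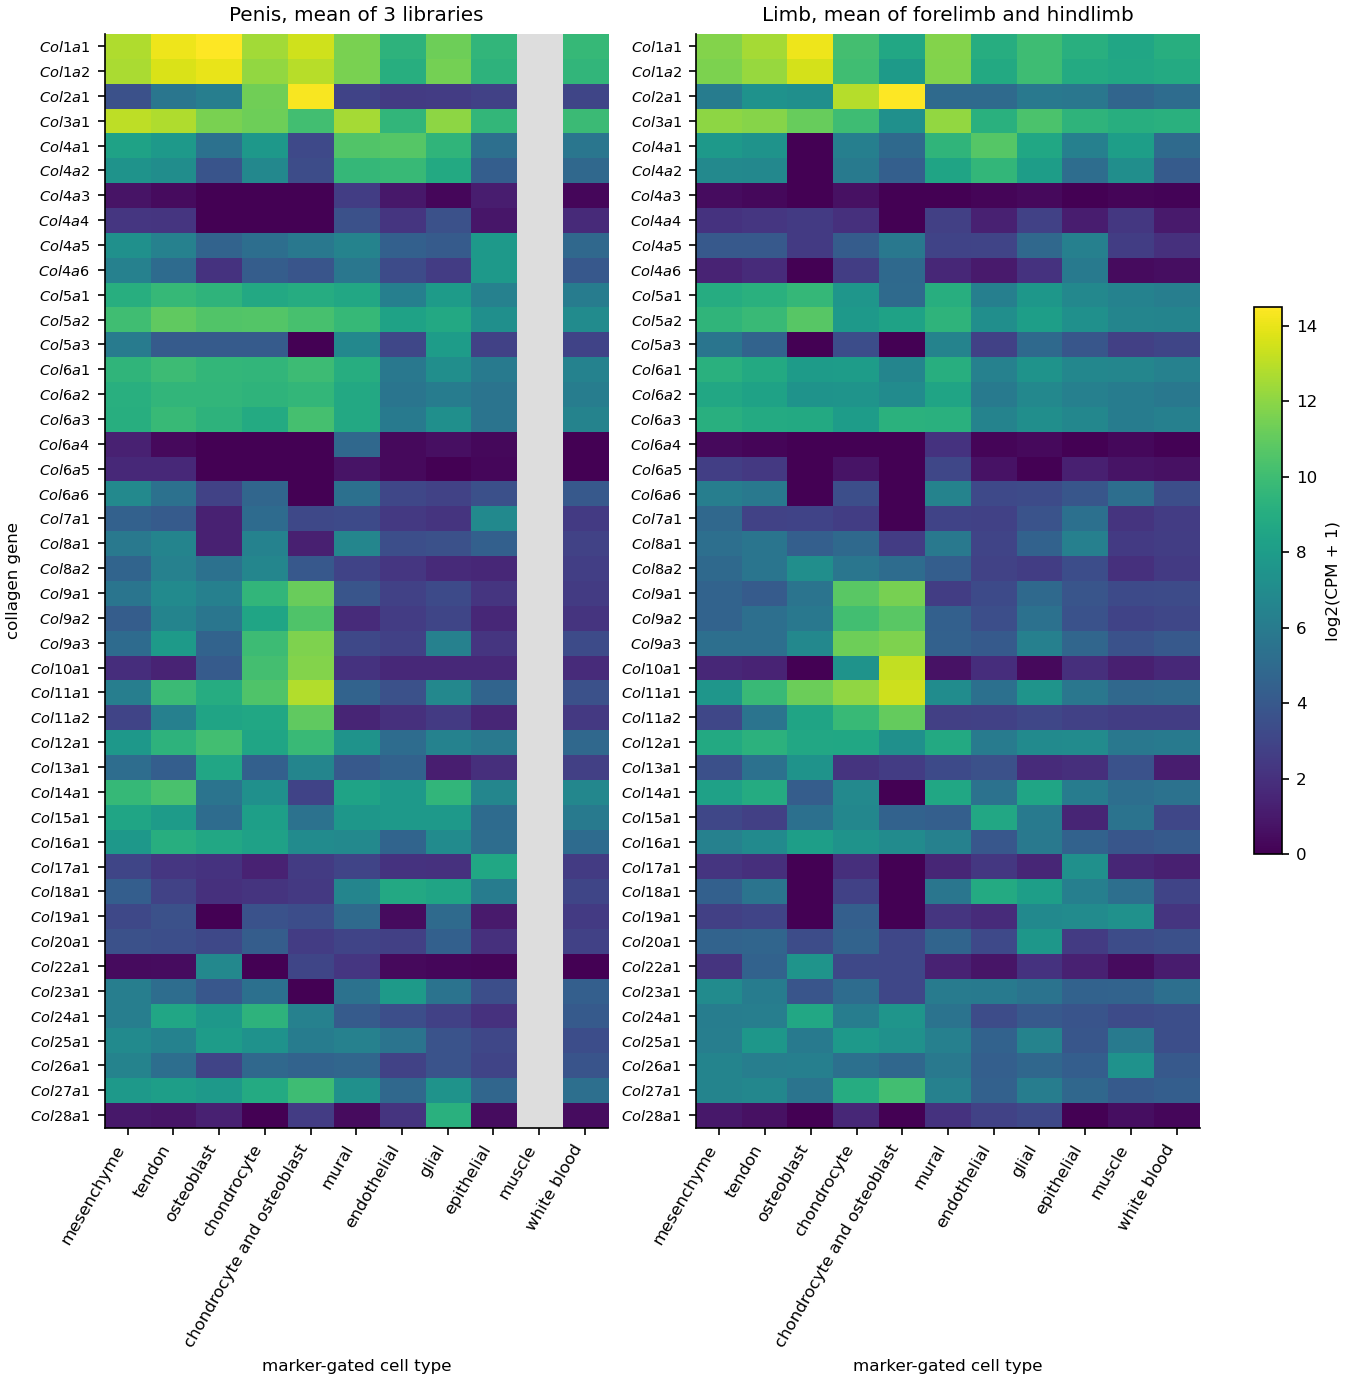
Mean level of each of the 44 collagen genes (rows) in each marker gate (columns), as log2(CPM + 1), over the 3 penis libraries (left) and over forelimb and hindlimb (right); grey marks the muscle gate, which no penis cell passed. *Col1a1*, *Col1a2* and *Col3a1* are bright across the connective tissue gates, type II, IX, X and XI genes in the chondrocyte gates, *Col17a1* in epithelium, and *Col28a1* in penis glia but not limb glia.

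Penis and limb were then compared gate by gate, 3 penis against 2 limb libraries, over all genes that passed a filter on low counts. A gene was called at an adjusted p under 0.01 and a log2 fold-change over 1, the p and fold limits of the study, whose further limits on the share of cells with a gene were not used. A fold-change is penis over limb. Outside white blood cells, no called collagen gene had groups that overlapped. A lack of overlap given below therefore adds nothing to a call. Its share over all genes was not computed. The tests covered 7 gates. *Col4a3*, *Col4a4*, *Col5a1*, *Col10a1* and *Col11a2* were called in none, though *Col4a3* was tested in 1 gate and *Col10a1* in 2. *Col2a1* was lower in 7 of 7 gates, *Col4a6* higher in 6 of the 6 gates where it was tested, and *Col4a5* and *Col15a1* higher in 6 of 7. These gates share libraries, so they are not independent, and 1 of them is the white blood gate itself. The share of all genes called one way in as many gates was not computed. *Col2a1* stood under 2-fold of white blood cells in at least 1 limb library in every other gate but tendon. In at least 1 penis library the same held for *Col4a6* in endothelium and tendon, *Col4a5* in endothelium and *Col15a1* in epithelium.

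In mesenchyme-gated cells, 10 collagen genes were higher in penis, 6 were lower and 28 were not called, all 44 being tested. Of all 20267 genes tested, 12.6% were called higher and 12.7% lower in this gate, 25.3% in all, and the collagen calls (16 of 44) are read against that share. The median log2 fold-change was 0.40 over the collagen genes and 0.0037 over all genes. *Col15a1*, the multiplexin, stood at 372, 360.2 and 384 CPM in penis against 7.63 and 7.40 in forelimb and hindlimb (log2 fold-change 5.61 ± 0.07 SE, adjusted p = 2.6e-09). These limb values lay close to those in limb white blood cells. *Col4a6* had 78.2, 78.0 and 87.1 CPM against 1.47 and 1.96 (log2 fold-change 5.54 ± 0.11 SE, adjusted p = 7.4e-09), and *Col4a5* 144, 156 and 168 against 14.8 and 16.8 (log2 fold-change 3.28 ± 0.09 SE, adjusted p = 1.8e-08). The groups lay far apart for these basement membrane genes, and their spread within a tissue was small. Calculated for 2000 UMIs per cell, 41.7%, 40.9% and 42.8% of penis mesenchyme cells would have a *Col15a1* UMI, 1.52% and 1.46% in forelimb and hindlimb. Such a share is the mean chance of keeping at least 1 UMI of the gene. It is taken over cells gated at full depth that hold at least 2000 UMIs. White blood cells gave 5.91 to 7.16% and 1.43 to 1.49% at the same depth. Without thinning the shares in mesenchyme were 70.1 to 71.5% and 4.15 to 4.17%.

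Other mesenchyme genes higher in penis were *Col6a4* (1.55 against 0.304 CPM, log2 fold-change 2.31, at a very low level), the transmembrane *Col13a1* (35.1 against 10.7, 1.69), *Col14a1* (1.35), *Col16a1* (1.31), *Col27a1* (1.29), *Col9a1* (1.04) and *Col1a2* (1.01). *Col14a1*, which binds type I fibrils, stood at 804, 843 and 824 CPM in penis and 392 in the forelimb and 246 in the hindlimb. Type I chain *Col1a1*, the partner of *Col1a2*, at 7041, 7061 and 7204 against 3904 and 3396 CPM, passed the p limit with a log2 fold-change of 0.94 and so was not called. *Col1a2* and *Col9a1* lie at the fold limit. *Col1a2* lost its call without the hindlimb (0.97), and *Col9a1* without penis replicate 1 (0.97), without the forelimb (0.94) and in cells thinned to 2000 UMIs (0.26).

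Among the 6 genes lower in penis mesenchyme were chains of cartilage and FACITs. *Col2a1* stood at 11.6, 11.9 and 9.96 CPM against 60.4 and 75.9 (log2 fold-change -2.62 ± 0.11 SE, adjusted p = 1.8e-07). The forelimb value lies under 2-fold of the one in forelimb white blood cells (32.7 and 34.9 CPM in white blood cells of forelimb and hindlimb), and 1173 and 1545 chondrocyte-gated cells were found in the limb libraries against 12 to 17 in penis, whose part was not tested. *Col11a1* had 67.0, 68.4 and 78.3 CPM against 166 and 218 (log2 fold-change -1.45 ± 0.10 SE, adjusted p = 3.5e-06) and the FACIT *Col12a1* 203, 206 and 217 against 458 and 431 (log2 fold-change -1.11 ± 0.06 SE, adjusted p = 7.3e-07). Neither pair of groups overlapped. *Col22a1*, a FACIT of the junction of muscle and tendon, stood at 0.493, 0.371 and 0.173 CPM in penis and at 2.66 and 4.43 in the limbs (log2 fold-change -3.31), under 2-fold of white blood cells in at least 1 limb library. *Col6a5* (-1.31) and *Col20a1* (-1.13) were low in both tissues. Of the 7 markers of the gate, *Twist1* was lower in penis (220.2 to 233 against 459 and 472 CPM) and *Fbln1* higher (433 to 464 against 205 and 189.9), while *Pdgfra* stood between 184 and 210.3 in all 5 libraries.

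**Figure D2:**
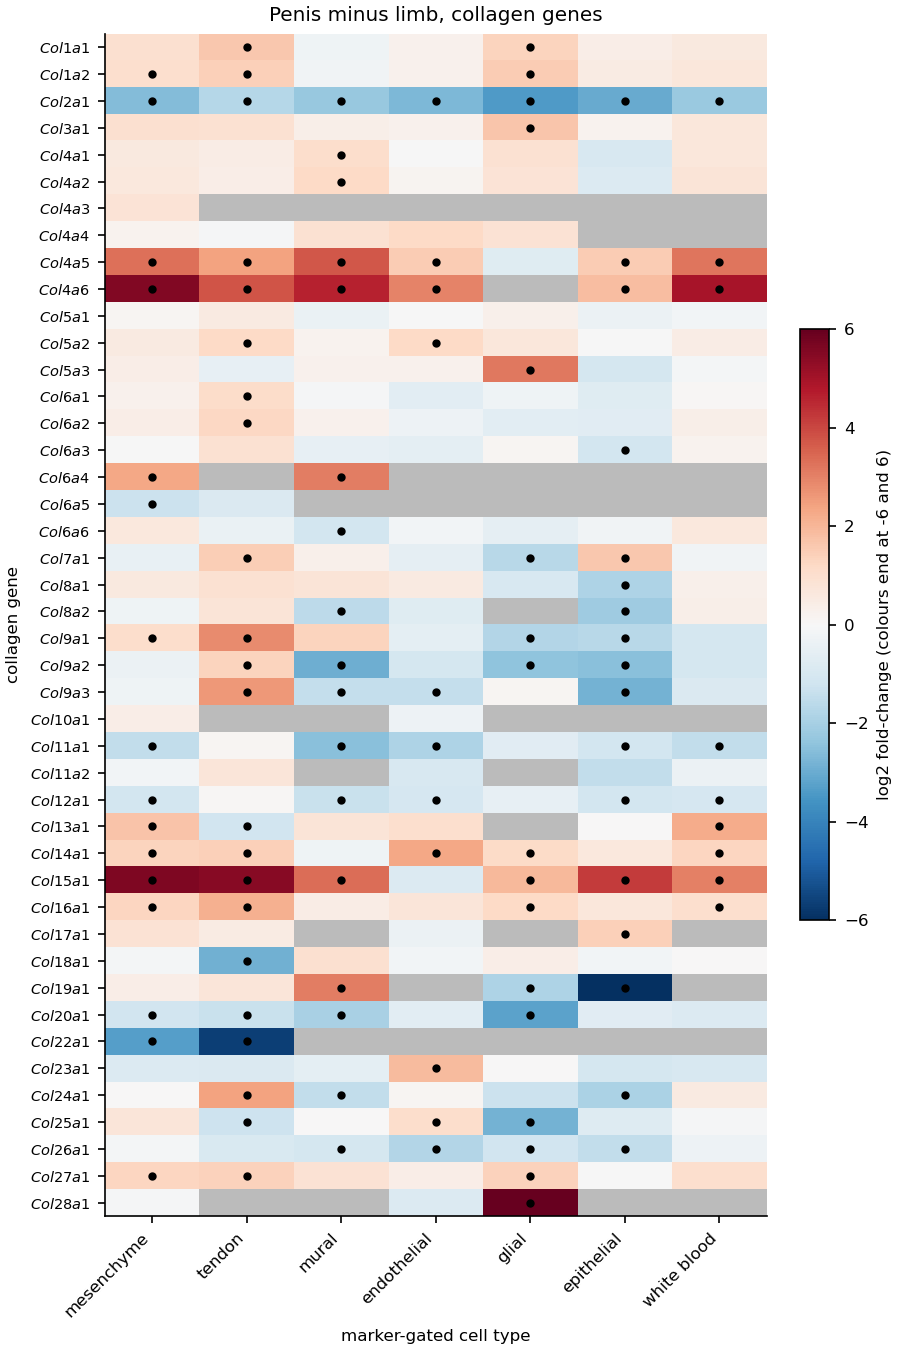
Log2 fold-change of penis over limb (edgeR, colour, ending at -6 and 6) for the 44 collagen genes in the 7 gates tested; black dots mark genes called at an adjusted p under 0.01 and a log2 fold-change over 1, and grey cells were not tested. *Col4a5*, *Col4a6* and *Col15a1* are red in nearly all gates, *Col2a1* is blue in all 7, and *Col9a1* and *Col9a3* are red in tendon and blue in epithelium.

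Tendon-gated cells had the most collagen calls: 16 higher and 6 lower of 40 tested, against 9% and 8.33% of all genes (17.3% in all). With cells thinned to 2000 UMIs, 2 were lower. The median log2 fold-change of the collagen genes was 0.76, that of all genes 0.0043. Both chains of type I were higher. *Col1a1* stood at 18072, 17191 and 18665 CPM in penis and 6623 in the forelimb and 5296 in the hindlimb (log2 fold-change 1.61 ± 0.08 SE, adjusted p = 9.4e-10), and *Col1a2* at 12942 ± 395 against 5112 and 4667 (log2 fold-change 1.42). *Col15a1* and *Col4a6* led by fold (5.47 and 3.77), with 255, 248 and 247 against 5.89 and 5.54 CPM for *Col15a1*. Both of these limb values lay below the ones in limb white blood cells. Next came genes of cartilage fibrils and a minor fibrillar chain: *Col9a1* at 119, 120.0 and 127 against 15.9 and 18.2 CPM (log2 fold-change 2.86 ± 0.11 SE, adjusted p = 4.7e-11), *Col9a3* at 229, 242 and 234 against 35.2 and 42.6 (log2 fold-change 2.62), and *Col24a1*, a fibrillar chain known from bone, at 390.3, 343 and 409 against 70.0 and 74.0 (log2 fold-change 2.42). None of these groups overlapped. *Col4a5*, *Col5a2*, *Col6a1*, *Col6a2*, *Col7a1*, *Col9a2*, *Col14a1*, *Col16a1* and *Col27a1* were also higher, by log2 fold-changes of 1.11 to 2.40. Penis levels of *Col4a6* and *Col7a1* were under 2-fold of white blood cells in at least 1 library, and *Col6a1* lost its call without the hindlimb (0.93).

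Lower in penis tendon cells were *Col22a1* (0.532, 0.315 and 0.373 against 22.9 and 22.8 CPM, log2 fold-change -5.67 ± 0.32 SE, adjusted p = 2.2e-09), *Col18a1* (5.59, 7.24 and 6.35 against 55.2 and 39.6 CPM, log2 fold-change -2.87), *Col2a1* (-1.73), *Col20a1* (-1.35), *Col25a1* (-1.24) and *Col13a1* (-1.13). *Col2a1* went against the type IX genes, with 54.6, 53.9 and 41.8 against 159.9 and 179 CPM. The gate does not hold like cells in both tissues. In penis 187 of 293, 163 of 259 and 152 of 241 tendon-gated cells had no more markers than the gate asks for, in forelimb 368 of 705 and in hindlimb 285 of 607. Its markers *Tnmd* and *Thbs4* were lower in penis (95.1 to 186 against 427 to 553 CPM for *Tnmd*), while *Fmod* was higher (346 to 380.2 against 154 to 159.5). Their part in the collagen differences was not tested.

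In mural cells 7 collagen genes were higher and 10 lower in penis of 37 tested, against 7.73% and 6.02% of all genes (13.8% in all). Collagen genes had a median log2 fold-change of 0.23, all genes one of 0.012. *Col4a6* stood at 36.0, 63.2 and 56.9 CPM in penis and 0 in the forelimb and 4.02 in the hindlimb (log2 fold-change 4.62 ± 0.53 SE, adjusted p = 2.5e-05). *Col4a5* stood at 76.3, 104 and 88.7 against 3.95 and 9.38 (log2 fold-change 3.72 ± 0.29 SE, adjusted p = 1e-06) and *Col15a1* at 195, 238 and 184 against 19.1 and 20.8 (log2 fold-change 3.35 ± 0.20 SE, adjusted p = 9.1e-08). The FACIT *Col19a1* (43.2, 24.9 and 26.6 against 4.60 and 2.68 CPM, log2 fold-change 3.09) and *Col6a4* (34.6, 25.4 and 25.9 against 4.60 and 2.01, 3.07) were low in level, and neither pair of groups overlapped. *Col4a1* and *Col4a2* were higher by 1.05 and 1.17, with 1474, 1379.7 and 1744 against 649 and 812 CPM for *Col4a1*. Lower were *Col9a2* (-2.95), *Col11a1* (-2.51), *Col2a1* (-2.28), *Col20a1* (-1.95) and *Col8a2* (-1.57), and by smaller folds *Col6a6*, *Col9a3*, *Col12a1*, *Col24a1* and *Col26a1*. *Col11a1* stood at 27.4, 16.2 and 27.3 CPM in penis and 125 and 140.0 in the limbs. Of the lower ones, *Col2a1* and *Col9a3* stood under 2-fold of white blood cells in at least 1 limb library. Thinned to 2000 UMIs, with gates set on the thinned counts, 3 collagen genes were called higher and 0 lower in mural cells. That count rests on 14 forelimb and 16 hindlimb cells, fewer than the 20 asked for elsewhere. Without penis replicate 2 there were 6 lower. The mural gate was not alike in both tissues: *Myh11*, of smooth muscle, stood at 638 to 778 CPM in penis and 89.5 and 71.0 in the limbs, and *Rgs5*, of pericytes, at 1251 to 1899 and 429 and 445; their part was not tested. *Col4a1* and *Col4a2* lost their calls with the thinned cells and also without the 5% of cells with most UMIs.

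In endothelial cells 6 collagen genes were higher and 5 lower of 39 tested, against 7.41% and 6.36% of all genes (13.8% in all). Collagen genes had a median log2 fold-change of -0.18, all genes one of 0.0074. The transmembrane *Col23a1* stood at 224, 227 and 264 CPM in penis and 56.3 in the forelimb and 68.7 in the hindlimb (log2 fold-change 1.89 ± 0.11 SE, adjusted p = 2.1e-10). White blood cells held 19.9 CPM of it in penis. Of the markers of the gate, *Emcn* stood at 999.7 to 1119 CPM in penis and 552 and 534 in forelimb and hindlimb, and *Kdr* at 304 to 319 against 441 and 499.99, and their part was not tested. *Col5a2*, a fibril chain, had 287, 330.4 and 369 CPM against 136 and 145 (log2 fold-change 1.18 ± 0.10 SE, adjusted p = 5e-08), and *Col25a1* 40.2, 51.6 and 51.1 against 22.2 and 22.1 (log2 fold-change 1.06). The groups did not overlap for these. The other calls concern genes whose level in endothelium was under 2-fold of that in white blood cells in at least 1 library of the higher tissue: *Col14a1* (2.34), *Col4a5* (1.54) and *Col4a6* (2.99) among the higher, and *Col2a1* (-2.71), *Col11a1* (-1.87), *Col26a1* (-1.74), *Col9a3* (-1.45) and *Col12a1* (-1.01) among the lower. Chains of vessel basement membranes, *Col4a1* and *Col18a1*, were not called. *Col4a1* stood at 1651, 1755 and 1578 CPM against 1636 and 1659 (log2 fold-change -0.03 ± 0.08 SE), and *Col18a1* at 446, 396 and 446 against 462 and 482 (-0.18 ± 0.08 SE). *Col15a1* in penis endothelium stood at 243, 241 and 216 against 425 and 389 CPM, without overlap and with a fold under the limit (log2 fold-change -0.84 ± 0.09 SE, adjusted p = 4.4e-07).

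The glial gate held the highest positive fold of any collagen gene in any gate. *Col28a1*, a chain known from the sheaths of peripheral nerves, stood at 635, 534 and 598 CPM in penis glia and 7.57 in the forelimb and 8.05 in the hindlimb (log2 fold-change 6.29 ± 0.16 SE, adjusted p = 1.9e-14). Calculated for 2000 UMIs per cell, as for *Col15a1* in mesenchyme, 62.7%, 57.7% and 58.8% of penis glia would have a *Col28a1* UMI. The shares were 1.40% and 1.43% in forelimb and hindlimb glia, and at most 0.225% in white blood cells of any library. In all, 9 collagen genes were higher and 8 lower of 34 tested, against 9.19% and 7.84% of all genes (17% in all). After thinning to 2000 UMIs, 4 were lower. Collagen genes had a median log2 fold-change of 0.08, all genes one of 0.0089. *Col5a3* stood at 246, 279 and 261 CPM against 31.5 and 28.5 (log2 fold-change 3.18 ± 0.14 SE, adjusted p = 1.5e-11), and *Col15a1* at 215, 221 and 243 against 63.7 and 57.8 (log2 fold-change 1.95). Fibrillar chains were higher too: *Col3a1* (4047, 4000.2 and 4369 against 1481 and 1237 CPM, 1.67), *Col1a2* (1.54), *Col1a1* (1.35) and *Col27a1* (1.37). *Col14a1* (1.13) and *Col16a1* (1.19) completed the set. No group overlapped here. The levels of these 9 genes were over 2-fold of those in white blood cells.

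Lower in penis glia were *Col20a1* (21.2 ± 1.48 against 213 and 193 CPM, log2 fold-change -3.20 ± 0.13 SE, adjusted p = 7.3e-12), the transmembrane *Col25a1* (8.49, 9.25 and 18.1 against 59.3 and 116, log2 fold-change -2.83) and *Col19a1* (19.6, 38.0 and 36.3 against 112 and 122, -1.84). *Col2a1* (-3.38), *Col9a2* (-2.40), *Col9a1* (-1.73), *Col7a1* (-1.66) and *Col26a1* (-1.16) followed, of which *Col2a1* and *Col26a1* stood under 2-fold of white blood cells in at least 1 limb library. Of the glial markers, *Ednrb*, an endothelin receptor, stood at 486 to 595 CPM in penis glia and 839 and 872 in forelimb and hindlimb, and *Sox10*, a factor of the glial lineage, at 237 to 284 against 208 and 239. Their part in these differences was not tested.

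In epithelial cells 5 collagen genes were higher and 12 lower of 37 tested, against 5.52% and 5.85% of all genes (11.4% in all). Thinned to 2000 UMIs per cell, 4 were lower. Collagen genes had a median log2 fold-change of -0.74, all genes one of 0.014. The chains that bind epidermis to its base were among the higher. *Col17a1* stood at 346, 368 and 483 CPM in penis and 209 in the forelimb and 100.4 in the hindlimb (log2 fold-change 1.42 ± 0.23 SE, adjusted p = 0.00039), and *Col7a1* at 108, 103 and 138 against 56.4 and 24.4 (log2 fold-change 1.60 ± 0.24 SE, adjusted p = 0.00022). *Col4a6* had 215, 188 and 259 CPM against 54.7 and 71.3 (log2 fold-change 1.84 ± 0.16 SE, adjusted p = 1.9e-06) and *Col4a5* 200.5, 177 and 278 against 80.5 and 77.4 (log2 fold-change 1.50 ± 0.18 SE, adjusted p = 2.4e-05). The groups did not overlap in any of these. *Col15a1* was called too (4.21), but its 33.0 CPM in penis lies below the 61.3 CPM of penis white blood cells. Markers of the gate moved too: *Krt14*, a keratin of basal epidermis, stood at 2564 to 2878 CPM in penis and 1461 and 978 in forelimb and hindlimb, and *Sfn* at 343 to 460.4 against 948 and 1067, and their part was not tested. The call on *Col17a1* was lost without the hindlimb (0.98), whose level was the lowest.

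The opposite direction was led by *Col19a1*, at 0.58, 1.35 and 1.19 CPM in penis and 155 in the forelimb and 99.8 in the hindlimb (log2 fold-change -6.82 ± 0.30 SE, adjusted p = 3.7e-09). Its level in limb white blood cells was 3.53 and 3.80 CPM. *Col8a1*, a network chain, stood at 29.3, 19.8 and 12.7 CPM in penis and 101 and 57.7 in the limbs (log2 fold-change -1.85 ± 0.29 SE, adjusted p = 0.00029). The other 10 lower genes (*Col2a1*, *Col6a3*, *Col8a2*, *Col9a1*, *Col9a2*, *Col9a3*, *Col11a1*, *Col12a1*, *Col24a1* and *Col26a1*) stood under 2-fold of the white blood level in at least 1 limb library. Among the top 5 of the lower calls were *Col2a1* (-3.04), *Col9a3* (-2.85), *Col9a2* (-2.50) and *Col8a2* (-2.11).

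White blood cells themselves had 6 collagen genes higher and 3 lower of 35 tested, against 13% and 8.01% of all genes (21% in all). Thinning to 2000 UMIs left 2 higher, and gates with 1 marker more gave 5 lower. Collagen genes had a median log2 fold-change of 0.31, all genes one of 0.0045. Higher were *Col4a6* (11.2, 16.6 and 16.9 against 0.431 and 0.486 CPM, log2 fold-change 4.94 ± 0.39 SE, adjusted p = 4.3e-06), *Col4a5* (3.21), *Col15a1* (47.2, 69.9 and 66.9 against 7.32 and 7.45 CPM, 3.04), *Col13a1* (2.25), *Col14a1* (1.27) and *Col16a1* (1.01). Lower were *Col2a1* (-2.20), *Col11a1* (-1.50) and *Col12a1* (-1.03). All 9 were called in the same direction in mesenchyme, where 25.3% of all genes were called either way. Both gates come from the same libraries, and the share of all called white blood genes also called in mesenchyme was not computed. Markers of the gate moved as well: *Ptprc*, the pan-leukocyte surface protein, stood at 670.4 to 886 CPM in penis and 170 and 148 in forelimb and hindlimb, and each other marker was also above both limb values in every penis library (*Tyrobp* at 2192 to 2373 against 1198 and 1151). The white blood reference is therefore not alike in both tissues, and the part of this was not tested. The calls on *Col12a1*, *Col13a1*, *Col14a1* and *Col16a1* in this gate did not hold without 1 or another library: without penis replicate 1 for *Col12a1* and *Col13a1*, and without penis replicate 2 or the hindlimb for *Col14a1* and *Col16a1*.

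**Figure D3:**
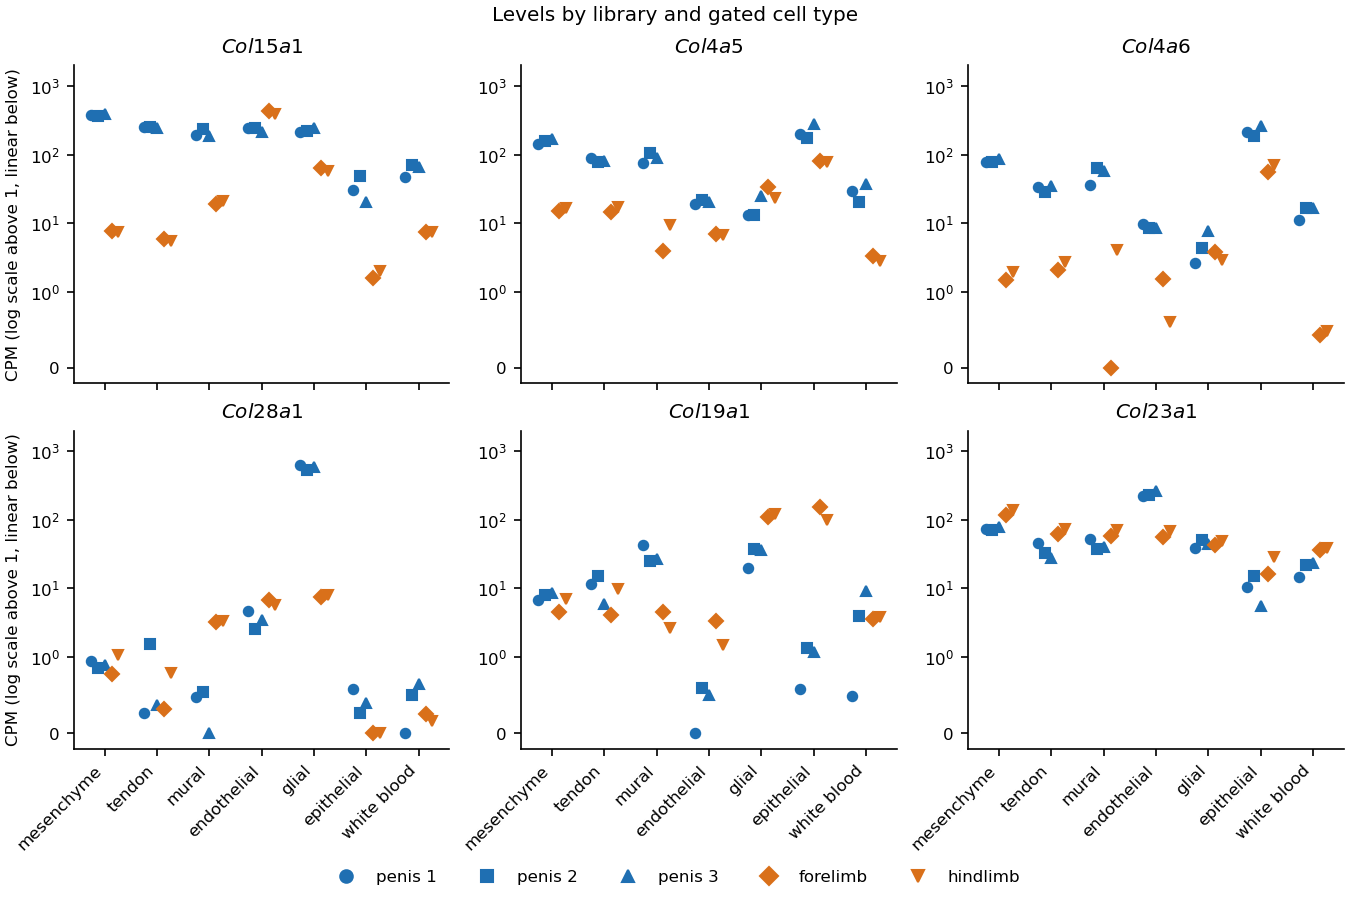
Level (CPM, log scale above 1 and linear below) of 6 collagen genes in each library, by marker gate; blue marks the 3 penis libraries and orange the forelimb and hindlimb. *Col15a1* is about even over 5 penis gates and in the limbs highest in endothelium, *Col28a1* stands out in penis glia (534 to 635 CPM) and *Col19a1* is at 99.8 to 155 CPM in limb epithelium and 112 to 122 in limb glia, against under 2 CPM in penis epithelium.

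Whether the difference between penis and limb itself differed between gates was tested as an interaction, fitted with a term for each library. Between endothelium and mesenchyme 8 of 44 collagen genes differed, where 7.31% of all genes did. *Col15a1* moved apart most (-6.42 ± 0.09 SE, adjusted p = 1.6e-17): its log2 fold-change was 5.61 in mesenchyme and -0.84 in endothelium. *Col23a1* had the reverse pattern (2.71 ± 0.08 SE, adjusted p = 7.8e-13), with 72.5, 70.5 and 79.3 CPM in penis mesenchyme against 116 and 138. Between epithelium and mesenchyme 19 of 44 collagen genes differed, where 7.31% of all genes did. In both interactions most of the called genes stood under 2-fold of white blood cells in at least 1 library. They are named in the section on flagged results. *Col19a1* (-7.29 ± 0.41 SE, adjusted p = 5.8e-13) was lower in penis epithelium and at 6.71, 8.12 and 8.66 against 4.58 and 6.94 CPM in mesenchyme. *Col7a1* (2.06 ± 0.19 SE, adjusted p = 8.6e-09) was the 1 gene of the 19 whose difference was more positive in epithelium. For *Col4a6* (-3.69 ± 0.18 SE, adjusted p = 4.3e-14) and *Col4a5* (-1.78 ± 0.17 SE, adjusted p = 9.4e-09) the penis level was higher in both gates, by less in epithelium.

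Skeletal gates were described without a test, since each penis library held few such cells. The chondrocyte gate held 17, 14 and 12 penis cells and 1173 and 1545 limb cells, the osteoblast gate 13, 15 and 9 and 13 and 5, and 9, 6, 9, 6 and 5 cells passed both. Of the chondrocyte-gated penis cells, 13, 9 and 8 had no more markers than needed. *Matn1*, a cartilage matrix gene, had no UMI in the chondrocyte-gated cells of penis libraries 1 and 3. In osteoblast-gated cells the markers *Bglap* and *Bglap2*, which mark late osteoblasts, had no UMI in either limb library. The markers *Ibsp*, *Ifitm5*, *Sp7* and *Alpl* went the other way, with both limb values above every penis value. *Ibsp* stood at 10178 and 8685 CPM in forelimb and hindlimb against 3720, 801 and 519 in penis. *Runx2* and *Dmp1* overlapped. All intervals below are 95% Poisson intervals on the UMIs and cover counting error only.

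*Col2a1* was highest in cells that passed both gates, with 22482, 25337 and 15254 CPM in penis and 26095 in the forelimb and 18508 in the hindlimb, and the tissues overlapped. *Col10a1*, the chain of hypertrophic cartilage, stood there at 4196, 4601 and 1889 CPM in penis and 8917 in the forelimb and 9244 in the hindlimb. Both limb values lay above the 3 penis values. In the forelimb its interval was 8216 to 9662 and in penis replicate 2, the highest of penis, 4298 to 4921. *Col1a1* stood in these cells at 9101, 9462 and 15569 CPM in penis against 224 in the forelimb and 616 in the hindlimb. Both limb values lay under 2-fold of those in white blood cells of the same library. Without each library's 5% of cells with most UMIs, 1, 0 and 1 of these penis cells and 5 and 2 of the limb cells were left. No doublet caller was run, and the part of doublets was not tested. *Col9a1* (2207, 2406 and 2377 against 3256 and 2550.4 CPM) and *Col11a1* (6694, 8884 and 6579 against 12308 and 9371) were lower in all 3 penis libraries than in both limb libraries, and *Col9a3* (3983, 3598 and 2446 against 3973 and 2756) overlapped.

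Cells that passed the chondrocyte gate only held 1095, 6278 and 582 CPM of *Col2a1* in penis and 8042 in the forelimb and 6815 in the hindlimb. Penis replicate 2 stood apart from the other two, with 6278 CPM (5935 to 6635) against 1095 CPM (957 to 1247) and 582 CPM (476 to 706), and likewise for *Col10a1* (154, 3327 and 5.60 CPM). Without it, the penis values of *Col2a1* were 582 and 1095 CPM. *Col24a1* was higher in penis in this gate, at 564, 670.3 and 745 CPM against 64.1 and 75.9, as were *Col1a1* (5244, 5348 and 6339 against 1338 and 981) and *Col5a2* (1587, 1566 and 1546 against 254 and 208). In osteoblast-gated cells *Col13a1* stood at 349, 160.1 and 631 CPM against 174 and 174, *Col22a1* at 133, 22.9 and 167 against 274 and 93.7, and *Col11a1* at 593, 444 and 454 against 2139.9 and 2636. The tissues overlapped for *Col13a1* and *Col22a1* and not for *Col11a1*.

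**Figure D4:**
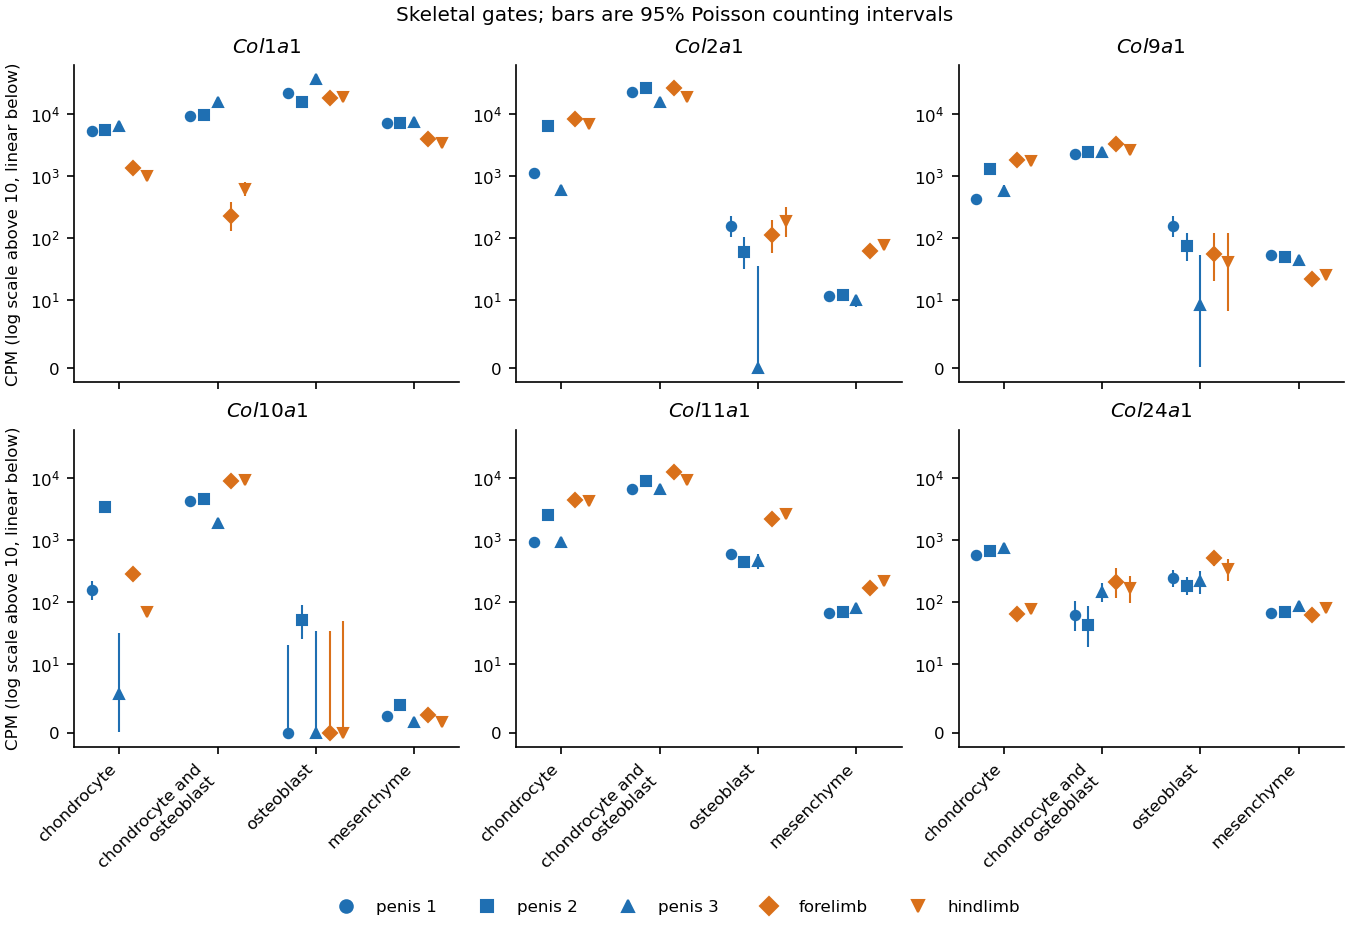
Level (CPM, log scale above 10 and linear below) of 6 collagen genes in the skeletal and mesenchyme gates, by library; bars are 95% Poisson counting intervals, blue marks penis and orange limb. *Col2a1* and *Col11a1* are highest in cells that passed both skeletal gates, *Col1a1* is lower in limb than in penis there, and *Col10a1* spans 5.60 to 3327 CPM over the penis chondrocyte gates.

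Chains of 1 trimer were set against each other as the ratio of their UMIs within a library. Type I fibrils hold a pair of *Col1a1* chains for each *Col1a2* chain. The ratio of *Col1a1* to *Col1a2* was 1.10 ± 0.01 in penis mesenchyme (SD, n = 3), 1.39 ± 0.03 in tendon, 1.44 ± 0.14 in osteoblast-gated cells and 0.88 ± 0.04 in glia. The 3 glial values all lay below the 3 of mesenchyme, and the 3 of tendon above. Since UMIs depend on capture at each gene's end, only differences between ratios of the same pair are read.

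*Col4a1* to *Col4a2*, the pair with overlapping promoter windows, was at 1.87 ± 0.0063 in penis mesenchyme, 1.87 ± 0.06 in endothelium, 1.92 ± 0.06 in mural cells, 1.66 ± 0.06 in tendon and 1.60 ± 0.05 in glia. The 3 values of penis glia lay below the 3 of penis mesenchyme. Between mesenchyme and endothelium the level of *Col4a1* went from 329 to 1661 CPM. Limb chondrocytes had a ratio of 1.41 in the forelimb and 1.10 in the hindlimb and limb endothelium one of 2.16 in the forelimb and 2.07 in the hindlimb. In limb mesenchyme it was 1.97 in the forelimb and 1.87 in the hindlimb. For *Col4a5* to *Col4a6*, the pair whose starts lie farther apart, the ratio was 0.98 ± 0.08 in penis epithelium, 1.92 ± 0.08 in penis mesenchyme and 2.56 ± 0.24 in penis tendon, and in limb mesenchyme 10.08 in the forelimb and 8.56 in the hindlimb. Limb epithelium had 1.47 in the forelimb and 1.09 in the hindlimb. Limb mesenchyme ratios rest on levels of *Col4a6* of 1.47 and 1.96 CPM.

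*Col6a1* to *Col6a2* was 1.26 ± 0.01 in penis mesenchyme and 2.08 ± 0.31 in penis glia. *Col5a1* to *Col5a2* was 0.51 ± 0.0035 in penis mesenchyme and 0.74 in the forelimb and 0.66 in the hindlimb, without overlap. In endothelium it was 0.23 ± 0.03 in penis, below every other tested penis gate, and 0.61 in the forelimb and 0.45 in the hindlimb. *Col9a1* to *Col9a2* was 2.59 ± 0.36 in penis mesenchyme and 1.10 in the forelimb and 0.89 in the hindlimb, and 1.30 ± 0.03 in penis tendon and 0.51 in the forelimb and 0.41 in the hindlimb, so *Col9a1* stood higher relative to its partner in penis in both gates.

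**Figure D5:**
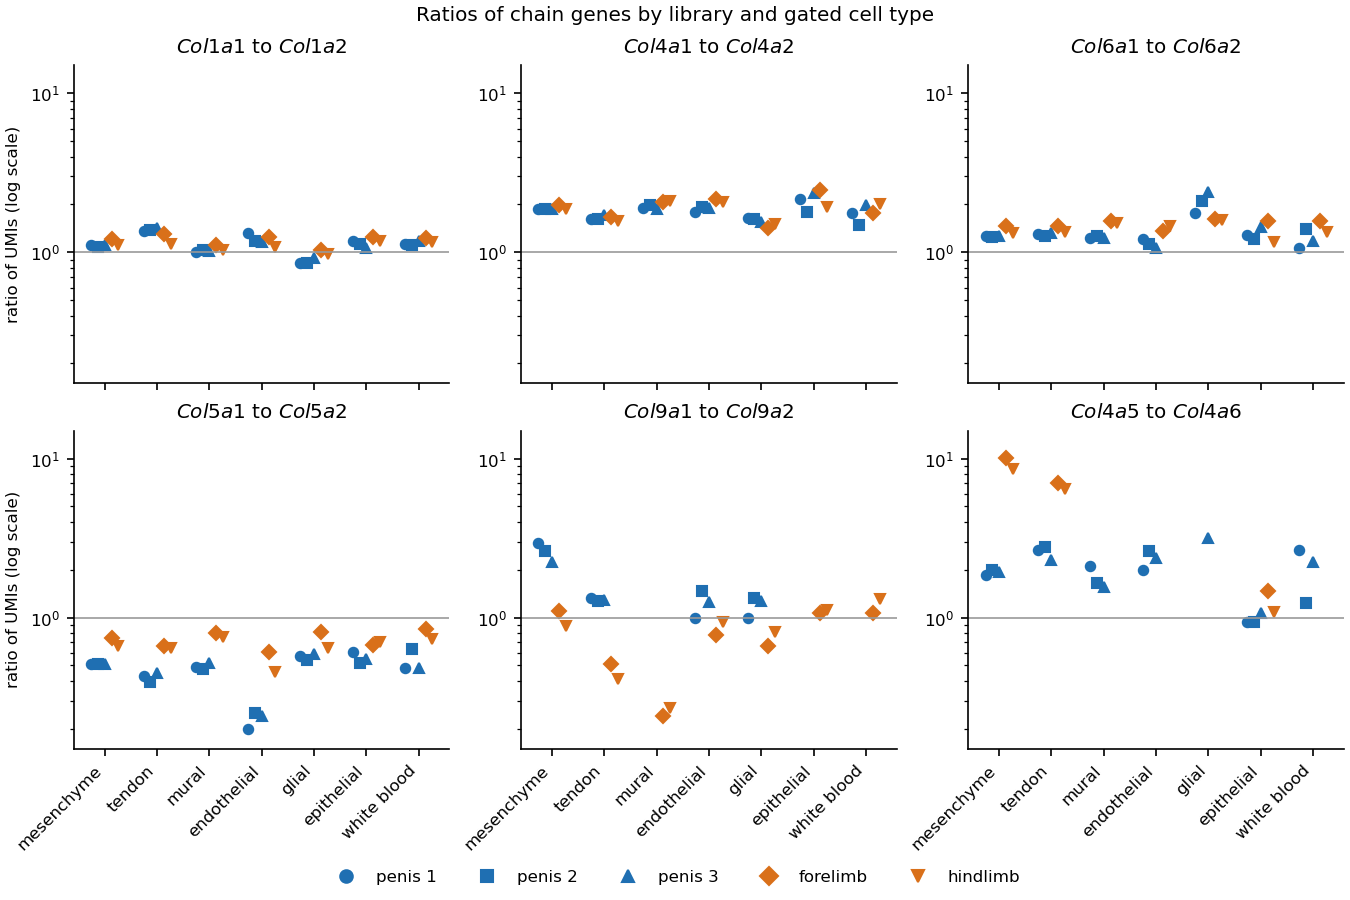
Ratio of the UMIs of 2 chain genes (log scale, grey line at 1) in each library, by marker gate. It is given where the second gene of the pair has at least 10 UMIs, with no limit on the first. Blue marks penis and orange limb. *Col4a1* to *Col4a2* averages 1.60 in penis glia, 1.66 in penis tendon and 1.92 in penis mural cells, while *Col4a5* to *Col4a6* runs from 0.93 in penis epithelium to 10.1 in forelimb mesenchyme.

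Of 32 biosynthesis genes, 0 were higher and 4 lower in penis mesenchyme, with a median log2 fold-change of -0.01 beside 0.0037 over all genes. Of all genes in that gate, 12.6% were called higher and 12.7% lower. The 4 were *Tll2*, the prolyl hydroxylase *P4ha2* (-1.83), *Tll1* (-2.66), which trims procollagen, and *Pcolce2* (-1.14), which enhances the trimming. *P4ha2* was also lower in endothelial (-1.73), mural (-2.53), white blood (-2.44) and tendon cells (-1.28), and *Tll1* in mural (-2.92), epithelial (-3.12) and tendon cells (-3.38). In endothelium *Tll1* was higher (log2 fold-change 3.97 ± 0.17 SE, adjusted p = 4.3e-12), beside *Adamts14* (-1.73) and *Tll2* (-2.63), which were lower. *Tmem38b*, an ion channel of the endoplasmic reticulum, was higher in glia (3.20) and mural cells (1.27), and *P3h2*, a prolyl 3-hydroxylase, in epithelium (1.89), where *Plod2* was lower (-1.13). In glia *Colgalt2* (-2.28) and *Adamts3* (-1.96) were lower. In white blood cells *Creb3l1*, a factor that turns on collagen secretion, was lower (-3.31), with *Sec24d*, of the vesicle coat (-1.18). Between 29 and 32 of these genes were tested in each of the 7 gates, and between 0 and 1 were called higher and between 2 and 4 lower. Of all genes, 5.52% to 13% were called higher and 5.85% to 12.7% lower over these gates.

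Of 7 collagen receptors, between 4 and 7 were tested in each gate, and between 0 and 2 were called, where 11.4% to 25.3% of all genes were called either way. The integrin chain *Itga2* was higher in penis mesenchyme (log2 fold-change 1.80 ± 0.16 SE, adjusted p = 1.3e-05) and tendon (1.85). *Itga1* was lower in endothelium (-1.27) and higher in white blood cells (1.83). *Ddr2*, a receptor tyrosine kinase for fibrillar collagen, was lower in glia (-1.91) and epithelium (-1.24). *Mrc2*, which takes up collagen fragments, was lower in glia (-1.43) and *Itga11* in epithelium (-3.44 ± 0.82 SE). Levels of the biosynthesis and receptor genes were not set against those in white blood cells. The part of free RNA in these calls was not tested.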

How the data were processed

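Libraries of single cells were made with a 10X Genomics 3′ kit, and per the submitters' processing notes reads were aligned to mm10 and counted with Cell Ranger 7.0.0. The authors deposited filtered matrices of raw UMI counts per gene and barcode. Whether intronic reads were counted is not given in the sources used here. The depth was 70554067 to 162335993 UMIs per library over 8411 to 28266 barcodes.

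Cells were kept by the study's stated limits, read here as genes per cell (500 to 6000 in penis, 100 to 9000 in forelimb and 100 to 9500 in hindlimb), mitochondrial UMIs (at most 5% in penis and 10% in limb) and complexity of at least 0.8. A cell passed a gate with UMIs of at least 4 markers of 7 (mesenchyme) or 8 (chondrocyte, osteoblast, endothelial, mural, epithelial, glial, muscle and white blood), or 3 of 6 (tendon and red blood). Cells that passed a pair of gates other than mesenchyme were left out, except those with both skeletal gates. No doublet caller was run. Without each library's top 5% of cells by UMIs, calls were made again. Penis libraries shared at most 37 barcodes and the limb libraries shared 203.

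The UMI counts were summed per library and gate (at least 20 cells in each library, except for thinned mural cells, with 14 and 16 in the limb libraries) and tested with the quasi-likelihood test of edgeR 4.0.16 (limma 3.58.1, R 4.3.3) on 3 penis and 2 limb libraries, with filterByExpr, TMM scaling and Benjamini-Hochberg adjustment over all genes of the gate. A call needed an adjusted p under 0.01 and an absolute log2 fold-change over 1. The SE was taken as the log2 fold-change over the root of F. The chondrocyte and osteoblast gates were not tested because some libraries held under 20 cells. No penis cell passed the muscle gate. The red blood gate, with 20 to 147 cells in each library, met the limit but was not among the comparisons run. The interaction of tissue and gate was fitted with the library as a block. On simulated counts for 20267 genes of the mesenchyme comparison, edgeR recovered 93.9% of 98 genes changed by 2 on the log2 scale. It recovered 99% of 102 changed by 3, with 1 false call, and DESeq2 1.42.0 recovered 89.8% and 97.1% with 0. Every simulated gene had the same spread between libraries (common dispersion 0.0058, against 0.0135 in the epithelial gate). Only genes above a floor of expected UMIs were changed. The recovery therefore does not cover the smaller gates or genes at low counts. Alternatives were RLE factors, DESeq2, no filter, 1 marker more per gate, all barcodes, cells thinned to 2000 UMIs and each library left out. Other steps ran in Python 3.11.15 with pandas 2.3.3, scipy 1.17.1, matplotlib 3.10.9 and numpy 2.4.6. Intervals are 95% Poisson.

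Members and gene lists were chosen with earlier results of these data known. Genes were named by role (types I to VII, IX to XII, XIV, XV, XVII and XVIII where highest) and as the top 5 called members in each direction, or the top 3 of the other lists. Further members, the 2-fold limit against white blood cells and the *Col4a5* to *Col4a6* ratio were chosen after values were seen. Promoter sequences are from RefSeq (GRCm38.p6), which held 35 of the 44 genes.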

Additional observations from a re-analysis of the deposited data

Results flagged for a closer look

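For these collagen genes the difference between penis and limb itself differed between gates, by the interaction test of edgeR at an adjusted p under 0.01 and a difference over 1 on the log2 scale. Values are the penis over limb log2 fold-change in the named gate minus that in mesenchyme.

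In endothelial against mesenchyme cells, the difference was 2.71 for *Col23a1* and 1.02 for *Col14a1*, which were more positive in endothelium. It was -6.42 for *Col15a1*, -3.20 for *Col19a1* (which did not pass the filter on low counts in endothelium alone) and -1.71 for *Col4a5*. It was -1.60 for *Col9a1*, -1.18 for *Col9a3* and -1.60 for *Col26a1*. The level of *Col9a1*, *Col9a3*, *Col19a1* and *Col26a1* in limb endothelium, and of *Col14a1* and *Col4a5* in penis endothelium, was under 2-fold of the one in white blood cells in at least 1 library.

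In epithelial against mesenchyme cells, the difference was 2.06 for *Col7a1* and negative for the other 18. Among basement membrane chains it was -3.69 for *Col4a6*, -1.78 for *Col4a5*, -1.52 for *Col4a1* and -1.45 for *Col4a2*. It was -2.71 for *Col9a1*, -2.14 for *Col9a2* and -2.59 for *Col9a3*, the FACIT chains of cartilage. Among fibrillar chains it was -1.91 for *Col24a1*, -1.29 for *Col27a1* and -1.44 for *Col5a3*. It was -1.005 for *Col6a1*, -1.10 for *Col6a2* and -1.05 for *Col6a3*, the chains of type VI. It was -2.40 for *Col8a1*, -1.83 for *Col8a2*, -7.29 for *Col19a1*, -1.44 for *Col25a1* and -1.33 for *Col26a1*. In limb epithelium, *Col6a1* and *Col6a2* were called neither way and stood at 123 and 87.5 CPM and at 78.9 and 75.3, against 98.9 and 61.8 CPM and 63.3 and 46.3 in limb white blood cells. The limb levels of *Col4a2*, *Col5a3*, *Col6a3*, *Col8a2*, *Col9a1*, *Col9a2*, *Col9a3*, *Col24a1*, *Col25a1*, *Col26a1* and *Col27a1* were also under 2-fold of the white blood ones in at least 1 limb library. Groups of 3 or fewer libraries were too small for a test of outlying samples.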

How the results depend on the processing

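No collagen call changed direction under any alternative, and 1 marker more per gate, DESeq2, RLE factors and no filter kept 95, 101, 108 and 104 gene calls on their side of the limits, with 12, 8, 1 and 5 lost. All barcodes lost 12, and leaving out the 5% of cells with most UMIs lost 13. Cells thinned to 2000 UMIs kept 54 and lost 14; the others did not pass the filter on low counts there. Thinning lowered counts of calls. Collagen genes then called were 3 higher and 0 lower in mural cells, 4 lower in epithelial, 4 lower in glial, 2 higher in white blood and 2 lower in tendon cells. All genes called higher and lower were 1577 and 1342 in mesenchyme, 504 and 343 in endothelial, 75 and 45 in mural (on 14 forelimb and 16 hindlimb cells), 298 and 277 in epithelial, 436 and 283 in glial, 674 and 406 in white blood and 246 and 138 in tendon cells, and 850 and 611 for the interactions of endothelial and epithelial with mesenchyme cells. With 1 marker more, 5 collagen genes were lower in white blood cells and 661 of all genes lower in tendon cells. Of 109 gene calls, 17 were lost without the hindlimb, 13 without the forelimb, and 9, 9 and 10 without penis replicates 1, 2 and 3. Without penis replicate 2 the count of collagen genes lower in mural cells was 6, from 10. When 1 library was left out, the count of collagen genes lower in epithelial cells moved both below and above its value over all libraries. So did the count for the interaction of epithelial with mesenchyme cells. Leaving out a limb library leaves 1, which is then assumed to vary like the penis libraries. With the stricter gates 137 levels moved by more than the spread between libraries and 322 did not, and 17 chain ratios moved and 36 did not. The cause of these changes was not tested. No paired analysis was possible because the labels tie no penis library to a limb library. Depth limits genes under about 1 CPM, such as *Col22a1* in penis, and the skeletal gates of penis.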

Other observations

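Cells of the red blood gate held *Col1a1* at 5542, 4404 and 3046 CPM in the penis libraries and 2499 and 2092 in forelimb and hindlimb, above every white blood value. They were few, 20 to 24 in a penis library and 130 to 147 in a limb library. Their median depth was above that of white blood cells of the same library in all 5 libraries. *Pdgfra*, a marker of the mesenchyme gate, stood at 94.97 to 136 CPM in them, against 21.4 to 30.5 in white blood and 184 to 210.3 in mesenchyme cells, and the part of mesenchyme cells or their RNA was not tested. Muscle-gated cells, found in the limbs, held 284 CPM of *Col4a1* in the forelimb and 279 in the hindlimb.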
